A study of Arabidopsis thaliana with 12 samples.

Results

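The genes described here are 60 cytosolic ribosomal protein genes of Arabidopsis thaliana, taken by a list of locus identifiers from a deposited table of 27655 genes. The list holds the P proteins of the acidic stalk (8 genes), the large subunit families L3 to L18 (43 genes) and the small subunit families SA to S4 (9 genes). All 60 rows were found, and all 60 passed the filter on low values. The RefSeq annotation of the TAIR10.1 genome calls the product of nearly every member a ribosomal protein; the exceptions are AT1G66580, a senescence associated gene (SAG24) with the synonym RPL10C, and AT3G49010, named breast basic conserved (BBC1). RNA came from whole seedlings of wild type Columbia that had grown for 7 days at 21°C with 8 h of light and 16 h of dark. At ZT1, an hour into the light period, seedlings stayed at 21°C or moved to 27°C, each without or with mannitol, and all were collected at ZT13. This gives 4 groups of 3 libraries, without and with mannitol at either temperature. Mannitol, a sugar alcohol, holds back water from the roots and stands in for drought. The sources used here give no dose for it. The series asks how drought changes growth responses to warmth.

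A cytosolic ribosome pairs a small subunit, which reads the messenger RNA, with a large subunit, which joins amino acids, and the acidic stalk on the large subunit brings in the translation factors. In plants each ribosomal protein is made from a family of several near-identical genes (paralogs), and the whole set is most active in growing tissue. Many plant ribosomal protein promoters carry a telo box, which resembles the repeat of plant telomeres, and site II elements, which are bound by TCP transcription factors.

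The promoters of the 60 genes held both elements often. Windows from 250 bases before to 50 bases after the RefSeq gene start were searched on both strands for exact letters: AAACCCTA for the telo box, TGGGCC or TGGGCT for site II, and TATAAA for a TATA box. None of these motifs is contained in another, and the site II forms differ in their last letter. A telo box was found in 32 of 60 windows (53.3%), against 6.22% of the 27443 windows of all genes. A site II element was found in 52 of 60 (86.7%), against 21.7% of all windows. Both were present in 27 of 60 (45.0%), against 2.20% of all windows. The TATA box differed less, at 60% of the 60 genes and 52.1% of all genes. Restricting the search to the 250 bases before the start left a telo box in 21.7% of the 60 genes and 4.49% of all genes, and site II in 78.3% and 19.2%. Matches of the telo box lay on both sides of the start, with a median offset of 1.5 bases and quartiles of -28 and 22. Those of site II lay mostly upstream of it, at a median of -44 bases with quartiles of -74 and -13. Over all genes the medians were -53 bases for the telo box and -77 for site II. These counts are descriptions of letters and do not show that a factor binds there.

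**Figure D1:**
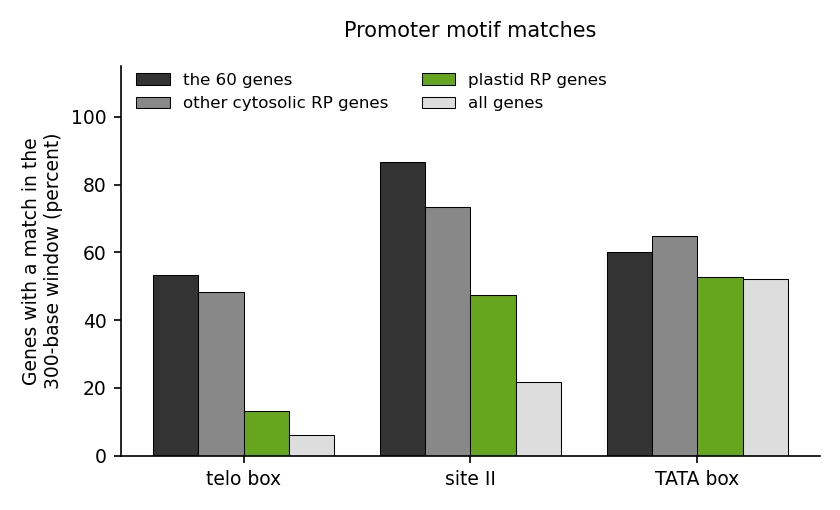
Percent of genes with at least 1 exact match in the 300-base promoter window, for the telo box, site II and the TATA box. Bars are the 60 genes, the other cytosolic ribosomal protein genes, the plastid ribosomal protein genes and all genes with a window; the telo box stands at 53.3%, 48.3%, 13.2% and 6.22%.

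Promoters of 4 genes are printed in this paragraph, each as the 250 bases before the gene start in TAIR10.1, read 5′ to 3′ on the strand of the gene, with telo box and site II matches in capitals. AT1G66580 and AT4G36130 were the members called with mannitol at 27°C. AT1G18540 and RPL3B (AT1G61580) were chosen after their values were seen, as a member that fell strongly in warmth and the member that rose in warmth with mannitol. They lie at chr1:6378581-6378830 (minus strand, AT1G18540), chr1:22723153-22723402 (minus strand, RPL3B), chr1:24838840-24839089 (plus strand, AT1G66580) and chr4:17097155-17097404 (plus strand, AT4G36130).
AT1G18540: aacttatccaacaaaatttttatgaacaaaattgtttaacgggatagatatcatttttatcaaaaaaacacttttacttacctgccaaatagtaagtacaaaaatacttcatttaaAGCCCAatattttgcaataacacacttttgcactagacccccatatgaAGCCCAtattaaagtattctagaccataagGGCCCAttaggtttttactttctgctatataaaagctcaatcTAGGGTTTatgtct
RPL3B: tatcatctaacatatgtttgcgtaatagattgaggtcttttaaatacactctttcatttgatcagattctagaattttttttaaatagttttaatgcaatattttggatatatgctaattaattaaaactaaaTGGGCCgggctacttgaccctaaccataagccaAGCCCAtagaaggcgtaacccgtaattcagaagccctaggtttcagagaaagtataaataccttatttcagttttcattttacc
AT1G66580: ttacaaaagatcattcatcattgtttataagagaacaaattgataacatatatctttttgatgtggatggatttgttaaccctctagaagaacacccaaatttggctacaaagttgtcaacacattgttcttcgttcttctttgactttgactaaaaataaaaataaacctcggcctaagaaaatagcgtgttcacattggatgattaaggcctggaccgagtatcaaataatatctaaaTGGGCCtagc
AT4G36130: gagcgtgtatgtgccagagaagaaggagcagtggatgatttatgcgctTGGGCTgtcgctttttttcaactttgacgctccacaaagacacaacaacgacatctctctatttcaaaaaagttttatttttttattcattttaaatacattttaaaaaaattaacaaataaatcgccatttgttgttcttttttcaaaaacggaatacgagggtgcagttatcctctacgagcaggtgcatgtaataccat
AT1G18540 carried 1 telo box and 3 site II matches in these bases. RPL3B carried 2 site II matches and no telo box. AT1G66580 and AT4G36130 carried 1 site II match each; the window of AT1G66580 held a telo box as well, 23 bases after the start and so outside the printed stretch.

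Libraries held between 13477706 and 14572531 reads, as recovered from the deposited values, and 18762 to 19640 genes had at least 1 TPM (a transcript level that corrects read numbers for the length of each gene; every library adds up to 1000000). The lowest read number of any of the 60 genes in any library was 162. Counting error, as 1 over the square root of the mean reads, had a median of 1.69% to 2.104% of the level over the 60 genes and reached 7.56%. The SD between replicates had a median of 2.67% to 11.7%, and counting error was at least as large as it for 3 to 13 of the 60 genes, depending on the group. All 5 shoot markers and all 5 root markers were above 0 in every library, the lowest being the nitrate transporter NRT2:1 at 0.307 TPM. The sum of the shoot markers was 67406 to 69233 TPM at 21°C, 53666 to 54344 with mannitol at 21°C, 53075 to 55269 at 27°C and 34549 to 35776 with mannitol at 27°C. The root markers summed to 87.0 to 169 TPM, 197 to 221, 136 to 148 and 196 to 201 in the same order. Single root markers moved unevenly with mannitol. Mean TPM of PHT1;1 went from 52.0 to 99.2 at 21°C and from 60.5 to 107 at 27°C. NRT2:1 went from 1.97 to 15.5 and from 0.374 to 5.06, and RSH2 from 3.18 to 3.72 and from 2.41 to 4.92. AGP3 went from 32.1 to 40.9 and from 33.1 to 37.9, and CASP1 from 38.5 to 51.0 and from 45.4 to 42.6. AGP3 and CASP1 passed an adjusted p below 0.05 in neither mannitol comparison. Single shoot markers moved in opposite directions from 21°C to 27°C without mannitol. Mean TPM went down for CAB1 (29800 to 17541), CAB2 (1106 to 15.6) and RBCS1A (31568 to 28785). It went up for RCA (3645 to 4956) and CA1 (2279 to 2618). Of these, CAB1, CAB2 and RCA passed an adjusted p below 0.05, and RBCS1A and CA1 did not. How far organ proportions take part in the results on ribosomal protein genes was not tested. In whole seedlings, fewer cells of a type and less RNA per cell cannot be told apart, and with a single collection time a lower level and a shifted daily phase cannot be told apart either. The labels do not say whether the 3 replicates of a group were grown or harvested separately, so p-values measure the spread between these libraries only.

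At 27°C the 60 transcripts were lower as a group. Their summed level was 22978, 24142 and 24552 TPM in the 3 libraries at 21°C. At 27°C it was 14599, 18091 and 16272 TPM. Every library at 27°C was below every library at 21°C, and the mean fell from 23891 ± 817 to 16321 ± 1747 TPM (SD, n = 3), which is 68.3% of the level at 21°C. With mannitol the sums were 24228, 24660 and 24265 TPM at 21°C and 16125, 16269 and 16630 TPM at 27°C. The means with mannitol, 24384 ± 240 and 16341 ± 260 TPM, were 102% and 68.4% of the level at 21°C without mannitol. Temperature thus separated the libraries, whereas in TPM as deposited libraries with and without mannitol overlapped at both temperatures.

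**Figure D2:**
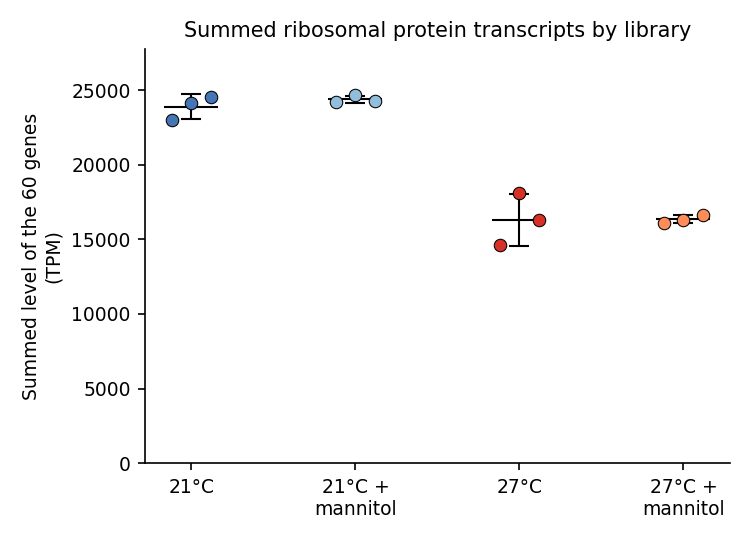
Summed level of the 60 genes for each of the 12 libraries, by group, with the group mean and SD. The y axis is in TPM and starts at 0; libraries at 27°C lie between 14599 and 18091 TPM, all below those at 21°C.

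TPM values share a fixed sum, so a change in abundant transcripts shifts the values of all others. Dividing each library by its median-of-ratios factor lowered the median log2 difference of all genes from 0.09 to 0.00 in warmth without mannitol and from 0.17 to -0.01 for mannitol at 27°C. On the rescaled values the sums at 27°C were 64.1% of those at 21°C without mannitol and 55.9% with it, and mannitol at 21°C left 94.8%. On that scale the libraries at 21°C no longer overlapped, at 25172, 26256 and 26174 without mannitol and 24289, 24763 and 24521 with it, while those at 27°C still did. The direction of the warm difference held on both scales, while that of the summed mannitol differences turned. Over all tested genes, the rescaled values gave 4405 higher and 4351 lower in warmth, 4606 and 5077 in warmth with mannitol, 2069 and 1907 for mannitol at 21°C, 2346 and 2983 for it at 27°C, and 314 and 740 for the interaction.

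Gene by gene, warmth lowered 53 of the 60 transcripts and raised none. Among all 20005 tested genes 16.6% were called lower and 28.2% higher at 27°C (limma on log2(TPM + 1), Benjamini-Hochberg adjusted p below 0.05). The median log2 difference was -0.59 for the 60 genes, 66.6% of the level at 21°C, and 0.09 for all tested genes. Single genes ranged from -1.16 to 0.17. For 53 genes all 3 libraries at 27°C lay below all 3 at 21°C, against 18.8% of all tested genes. On the rescaled values 56 were called lower and none higher.

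**Figure D3:**
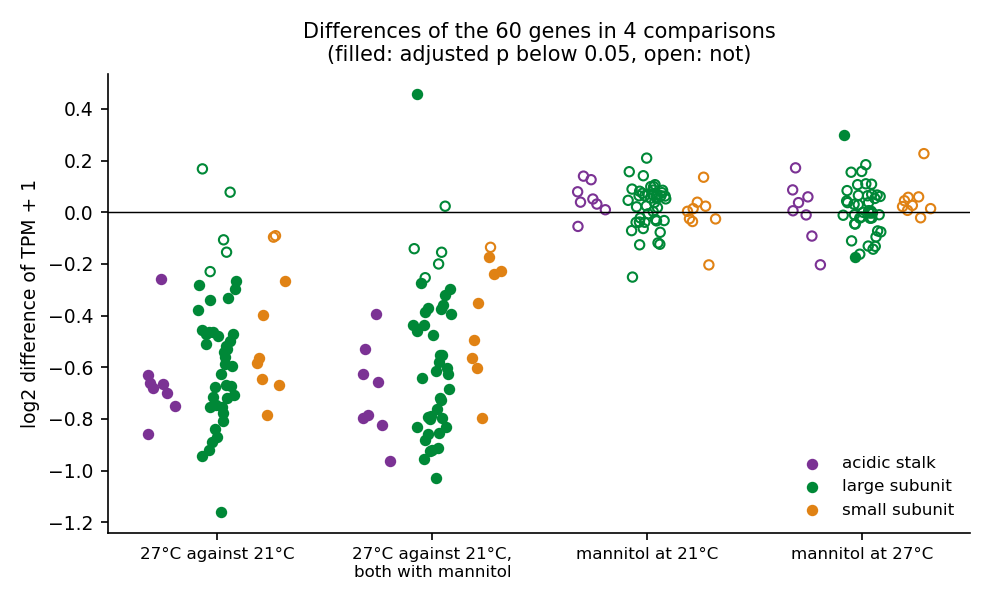
Log2 difference of TPM + 1 for each of the 60 genes in 4 comparisons, coloured by acidic stalk, large subunit and small subunit; filled points passed an adjusted p below 0.05. In warmth without mannitol 53 points are filled, all below 0, and in the mannitol comparisons 0 and 2 points are filled.

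All 8 genes of the acidic stalk fell at 27°C, with a median of -0.67. P0 anchors the stalk to the large subunit, and its main gene AT3G09200 stood at 719, 749 and 795 TPM at 21°C and at 453, 498 and 475 TPM at 27°C. The groups were far apart, and the log2 difference was -0.67 ± 0.05 (SE, adjusted p = 1.97e-07). A second P0 gene, AT2G40010, was the least abundant of the 60 genes at a mean of 20.5 TPM over 12 libraries. It was at 21.6, 21.7 and 22.2 TPM at 21°C and 17.6, 18.7 and 18.1 TPM at 27°C, also without overlap (-0.26 ± 0.08, adjusted p = 0.0137). The third P0 gene, AT3G11250, fell by 0.66 on the log2 scale.

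P1 and P2 form the pairs that hang from P0 and contact the elongation factors. The P2 gene AT2G27710 had the largest fall of the stalk without mannitol. Its libraries were at 372, 380 and 427 TPM at 21°C and at 186, 259 and 209 TPM at 27°C, which do not overlap (-0.86 ± 0.10, adjusted p = 5.09e-06). Its neighbour AT2G27720, with no protein-coding gene between them, fell by 0.70. The P1 gene AT4G00810 read 247, 279 and 256 TPM at 21°C and 116, 190 and 167 TPM at 27°C, where replicate 1 was the lowest (-0.75 ± 0.13, adjusted p = 0.000219). The other P1 genes, AT1G01100 and AT5G47700, fell by 0.63 and 0.68. Stalk genes made up 11.2% ± 0.113 of the summed TPM of the 60 genes at 21°C and 10.1% ± 0.317 at 27°C (SD, n = 3), and the libraries did not overlap.

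In the large subunit 38 of 43 genes fell at 27°C and none rose, with a median of -0.54. The largest fall of all 60 genes was that of AT4G10450, an L9 gene whose protein sits at the foot of the stalk. Its libraries were at 87.0, 84.9 and 89.5 TPM at 21°C and 34.9, 41.6 and 39.1 TPM at 27°C. The level at 27°C was 44.2% of that at 21°C (-1.16 ± 0.08, adjusted p = 6.43e-08). The other L9 genes are the neighbours AT1G33120 and PGY2 (AT1G33140), the latter named for a leaf shape mutant. AT1G33120 fell by 0.47, while PGY2 read 108, 121 and 112 TPM at 21°C and 73.0, 130 and 94.2 TPM at 27°C. The libraries of PGY2 overlapped and it did not pass (-0.23 ± 0.15, adjusted p = 0.227).

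The L10a genes encode the protein of the L1 stalk, which helps the spent transfer RNA leave the ribosome, and all 3 fell. AT5G22440 went from 163, 171 and 179 TPM to 81.5, 97.8 and 86.1 TPM (-0.94 ± 0.07, adjusted p = 2.13e-07). PGY1 (AT2G27530), named for a leaf shape mutant like PGY2, went from 404, 427 and 416 TPM to 196, 247 and 231 TPM (-0.89 ± 0.08, adjusted p = 4.56e-07). Neither gene had overlapping libraries, and the third gene, AT1G08360, fell by 0.56.

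The L6 family split. AT1G18540, whose promoter is printed among the 4, stood at 494, 515 and 525 TPM at 21°C and 245, 301 and 265 TPM at 27°C (-0.92 ± 0.07, adjusted p = 9.11e-08). Its paralog AT1G74050 went from 281, 291 and 294 TPM to 208, 262 and 237 TPM, a smaller difference that passed (-0.30 ± 0.07, adjusted p = 0.00318). The adjacent copy AT1G74060 read 173, 187 and 200 TPM against 142, 197 and 167 TPM. These libraries overlapped, and the difference did not pass (-0.15 ± 0.09, adjusted p = 0.182), although it did on the rescaled values at -0.25 (adjusted p = 0.0485).

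The most abundant transcript of the 60 was EMB2296 (AT2G18020), an L8 gene needed for embryo development whose protein lies by the catalytic centre. It stood at 1015, 1055 and 1048 TPM at 21°C and 827, 917 and 849 TPM at 27°C (-0.27 ± 0.05, adjusted p = 0.000636). The second in abundance was the L3 gene RP1 (AT1G43170), with 826, 860 and 926 TPM against 603, 619 and 602 TPM (-0.52 ± 0.05, adjusted p = 1.95e-06). Neither gene had overlapping libraries. Across the 60 genes the warm difference had no marked relation to abundance: Pearson's r with the log2 of mean TPM was -0.15 and Spearman's rho -0.09, given as a description across genes that are not independent.

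L10 sits near the site where transfer RNA enters the catalytic centre, and its main gene SAC52 (AT1G14320) went from 814, 829 and 861 TPM to 437, 559 and 503 TPM (-0.75 ± 0.07, adjusted p = 1.45e-06). The minor gene RPL10B (AT1G26910), among the 3 lowest at a mean of 26.3 TPM, read 27.1, 34.2 and 31.2 TPM against 22.0, 26.7 and 23.9 TPM. Its libraries do not overlap but lie close, and its call (-0.33 ± 0.12, adjusted p = 0.0348) was lost without 21°C replicate 2, at -0.26 (adjusted p = 0.145), without 21°C replicate 3 (adjusted p = 0.0810), without 27°C replicate 1 (adjusted p = 0.111) and without 27°C replicate 3 (adjusted p = 0.0828). It was also lost without the low-value filter (adjusted p = 0.0501), without the mean-variance trend (adjusted p = 0.0545) and with only the contrast's groups fitted (adjusted p = 0.0503). The third gene, SAG24 (AT1G66580), went from 249, 267 and 260 TPM to 194, 236 and 208 TPM (-0.28 ± 0.07, adjusted p = 0.00267). L5 and L11 bind the smallest ribosomal RNA, and both L5 genes, ATL5 and RPL5B, fell, by 0.68 and 0.63.

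In the small subunit 7 of 9 genes fell at 27°C and none rose, with a median of -0.56. The SA protein faces the exit of the messenger RNA, and its main gene P40 (AT1G72370) was among the 3 most abundant of the 60. It went from 813, 854 and 858 TPM to 499, 625 and 567 TPM without overlap (-0.58 ± 0.07, adjusted p = 9.11e-06). The minor gene RPSAb (AT3G04770), at 25.5, 28.0 and 27.4 TPM, went to 15.4, 17 and 17.3 TPM (-0.67 ± 0.09, adjusted p = 3.96e-05).

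S3 and S3a bind near the path of the messenger RNA, and each family held a gene that fell and a gene that did not pass. The S3a gene AT3G04840 went from 585, 617 and 655 TPM to 336, 389 and 353 TPM (-0.78 ± 0.06, adjusted p = 1.58e-07), while AT4G34670 read 463, 456 and 485 TPM against 420, 463 and 435 TPM (-0.09 ± 0.06, adjusted p = 0.199). The S3 gene AT2G31610 went from 371, 410 and 387 TPM to 224, 269 and 254 TPM (-0.65 ± 0.06, adjusted p = 1.98e-06), while AT5G35530 read 197, 210 and 220 TPM against 178, 208 and 202 TPM (-0.10 ± 0.07, adjusted p = 0.259). On the rescaled values AT4G34670 and AT5G35530 were called lower, both at -0.19 (adjusted p = 0.0207 and 0.0365). Small subunit genes made up 16.3% ± 0.101 of the summed TPM of the 60 genes at 21°C and 17.6% ± 0.394 at 27°C (SD, n = 3).

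Of the 7 genes that did not pass at 27°C, 3 more belong to the large subunit. RPL3B, the minor L3 gene, read 71.8, 70.1 and 67.0 TPM at 21°C and 70.0, 89.9 and 76.4 TPM at 27°C (0.17 ± 0.08, adjusted p = 0.123). The L13 gene AT5G23900 read 225, 225 and 226 TPM against 208, 274 and 235 TPM (0.08 ± 0.08, adjusted p = 0.433), and its sign turned to -0.02 on the rescaled values and to -0.03 without 27°C replicate 2. The L11 gene RPL16A read 35.1, 37.8 and 37.6 TPM against 30.7, 43.8 and 29.5 TPM (-0.11 ± 0.12, adjusted p = 0.489). In all 3 the groups overlapped, and replicate 2 was the highest at 27°C.

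Replicates at 27°C differed from each other in a shared way. Replicate 1 was the lowest of the 3 for 55 of the 60 genes, and replicate 2 the highest for 58. Without replicate 1 the median of the 60 genes was -0.51, with 52 called lower and 2 higher, which were RPL3B at 0.25 (adjusted p = 0.0235) and AT5G23900 at 0.17 (adjusted p = 0.0378). Without replicate 2 the median was -0.66, with 56 called lower and none higher, PGY2 (-0.44), AT1G74060 (-0.27) and RPL16A (-0.28) among them. Without replicate 1 these 3 genes were at -0.031, -0.038 and -0.032 and AT5G35530 at -0.028, and without replicate 3 RPL16A was at -0.0045; none of these passed.

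Warmth was tested again between the libraries that all received mannitol. Here 53 of the 60 genes were lower and 1 was higher, among 16.5% lower and 37.5% higher of all tested genes. The median of the 60 was -0.59, against 0.16 for all genes. All 8 stalk genes, 37 of 43 large subunit genes and 8 of 9 small subunit genes fell. For 57 genes the 3 libraries at 27°C lay below the 3 at 21°C, against 20.9% of all genes, and for 1 above, against 44.7%. On the rescaled values 58 were lower and 1 higher.

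AT4G10450 again had the largest fall, from 83.6, 95.2 and 93.2 TPM to 40.5, 47.2 and 43.9 TPM (-1.03 ± 0.08, adjusted p = 1.51e-07). It was followed by the stalk gene AT4G00810, which went from 259, 257 and 271 TPM to 134, 127 and 142 TPM (-0.96 ± 0.13, adjusted p = 1.91e-05). AT1G18540 went from 530, 556 and 518 TPM to 271, 272 and 284 TPM (-0.96 ± 0.07, adjusted p = 5.28e-08). None of the 3 genes had overlapping libraries. The L14 gene AT2G20450 went from 169, 173 and 153 TPM to 81.2, 93.1 and 84.8 TPM (-0.92 ± 0.10, adjusted p = 5.04e-06).

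RPL3B was the only one of the 60 genes called higher in this comparison. It read 55.9, 63.3 and 56.0 TPM with mannitol at 21°C and 83.9, 77.0 and 80.6 TPM with mannitol at 27°C, 137.7% of the level at 21°C (0.46 ± 0.08, adjusted p = 0.000418). The main L3 gene RP1 went the other way over the same libraries, from 822, 871 and 857 TPM to 651, 657 and 658 TPM (-0.37 ± 0.05, adjusted p = 3.06e-05). Neither gene had overlapping libraries. L3 lies at the catalytic centre, and both genes encode it.

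The warm differences without and with mannitol rest on separate libraries. Over the 60 genes they had the same sign in 60 of 60 and a Pearson's r of 0.92 (Spearman's rho 0.92), which describes genes of related sequence and shared libraries within each comparison. The difference between them, the interaction, passed for none of the 60 genes, while 2.43% of all genes were called higher and 2.69% lower. At an unadjusted p below 0.05 there were 2 of 60, and voom on the recovered reads also called 0. The lowest adjusted p was that of RPSAb, whose warm difference was -0.67 without and -0.24 with mannitol (interaction 0.43 ± 0.13, adjusted p = 0.0761). Its libraries with mannitol were 21.8, 24.2 and 23.8 TPM at 21°C and 22.2, 18.4 and 18.3 TPM at 27°C, where 27°C replicate 1 overlapped the other group. Its call in warmth with mannitol (adjusted p = 0.0407) was lost without 21°C replicate 2 or without replicate 2 or 3 with mannitol at either temperature, with adjusted p from 0.0507 to 0.144, and with the replicate number as a block (adjusted p = 0.0579). RPL3B had an interaction of 0.29 ± 0.12 (adjusted p = 0.201), and 0.39 (adjusted p = 0.0339) without 27°C replicate 2.

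**Figure D4:**
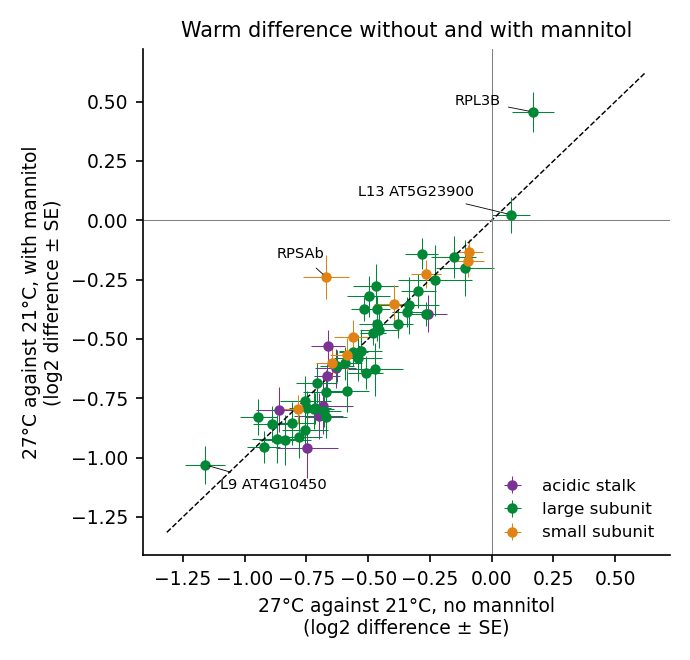
Warm difference of each of the 60 genes without mannitol (x axis) and with mannitol (y axis), in log2 of TPM + 1 with SE as crosses; the dashed line marks equal differences. AT4G10450 is at the lower left at -1.16 and -1.03, RPL3B at the upper right at 0.17 and 0.46, and RPSAb above the line at -0.67 and -0.24.

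Mannitol at 21°C passed for none of the 60 genes, while 15.4% of all tested genes were called higher and 4.61% lower. At an unadjusted p below 0.05 there were 4 genes, and voom on the recovered reads also called 0. The median of the 60 was 0.04 and that of all genes 0.08, and single genes ranged from -0.25 to 0.21. The 3 libraries with mannitol lay above the 3 without for 13 genes and below for 5, against 28.0% and 11.2% of all genes. The lowest value and lowest adjusted p belonged to RPL3B, which was at 55.9, 63.3 and 56.0 TPM with mannitol and at 71.8, 70.1 and 67.0 TPM without (-0.25 ± 0.08, adjusted p = 0.0503). Its libraries did not overlap, and it passed on the rescaled values at -0.36 (adjusted p = 0.0131), without replicate 2 with mannitol at 21°C (adjusted p = 0.0353) and without 27°C replicate 1 or 2 (adjusted p = 0.0220 and 0.0112). In all, 4 of the 60 genes were called lower on the rescaled values. With only the 21°C groups fitted, RPL3B passed as well (adjusted p = 0.0218), and 3 of the 60 genes were called higher and 1 lower.

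Mannitol at 27°C passed for 2 of the 60 genes, while 27.7% of all tested genes were called higher and 6.80% lower. The median of the 60 was 0.01 and that of all genes 0.17. The gene called higher was SAG24, the L10 gene linked to senescence, at 194, 236 and 208 TPM without mannitol and 252, 266 and 266 TPM with it. The groups did not overlap (0.30 ± 0.07, adjusted p = 0.00291). At 21°C its libraries did not overlap either, at 249, 267 and 260 TPM without and 288, 284 and 293 TPM with mannitol. The difference at 21°C did not pass (0.16 ± 0.07, adjusted p = 0.113). It passed without 27°C replicate 2 (adjusted p = 0.0264) and with only the 21°C groups fitted (adjusted p = 0.0301). On the rescaled values SAG24 was at 0.10 for mannitol at 27°C (adjusted p = 0.320).

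The gene called lower with mannitol at 27°C was the L8 gene AT4G36130, at 213, 257 and 228 TPM without mannitol and 206, 204 and 207 TPM with it (-0.17 ± 0.06, adjusted p = 0.0439). The libraries did not overlap, but the nearest were close, and the call was lost without any library of 21°C with mannitol, 27°C with mannitol, 21°C replicate 2 or 3, or 27°C replicate 2 or 3, with adjusted p from 0.0523 to 0.141. Without 27°C replicate 2 the difference was -0.097. At 21°C the gene read 285, 299 and 297 TPM without and 269, 271 and 268 TPM with mannitol (-0.13 ± 0.06, adjusted p = 0.180), and it was called on the rescaled values at -0.23 (adjusted p = 0.0264) and without 27°C replicate 2 (adjusted p = 0.0483). The 3 libraries with mannitol at 27°C lay above the 3 without for 5 of the 60 genes and below for 1, against 36.9% and 9.21% of all genes. On the rescaled values 13 genes were called lower and none higher, while the values as deposited gave 8 lower without 27°C replicate 1.

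The mix of paralogs differed between temperatures in some families and hardly in others. Of the 24 families with at least 2 members, the share that moved most between 27°C and 21°C without mannitol moved by over 5 points in 7 families and by under 2 points in 9, with a median of 2.97 points. The smallest move, 0.231 points, was in SA. In 13 families the libraries at 27°C and 21°C, with and without mannitol, did not overlap for that gene. The gene was chosen by its move between libraries that are part of this count. That choice favours a gap, so the count is a description only. Shares are each gene's part of the summed TPM of its family members among the 60 genes, given as mean ± SD over 3 libraries. AT1G18540 held 51.9% ± 0.285 of the L6 transcripts at 21°C and 51.8% ± 1.25 with mannitol, and 40.1% ± 0.903 and 39.6% ± 0.529 at 27°C without and with mannitol. In S3a the share of AT4G34670 went the other way, from 43.1% ± 0.949 and 42.8% ± 0.271 to 55.0% ± 0.614 and 54.2% ± 0.672. That gene was the smaller part of its family at 21°C and the larger part at 27°C in every library.

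SAC52 held 74.3% ± 0.777 of L10 at 21°C, 72.8% ± 0.321 with mannitol, 67.8% ± 0.794 at 27°C and 63.4% ± 1.13 with both. All libraries with mannitol were below those without at each temperature. AT5G35530 held 34.9% ± 1.17 and 37.7% ± 0.307 of S3 at 21°C, and 44.0% ± 0.413 and 44.9% ± 1.48 at 27°C. AT4G10450 went from 27.0% ± 1.42 and 27.3% ± 1.73 of L9 to 17.3% ± 2.35 and 19.9% ± 2.099. In these 5 families no library at 27°C overlapped a library at 21°C. They were chosen as the largest moves over the 4 groups, and that choice favours such a gap. The shares carry no test, and rescaling a library does not change them. The sources used here do not say how reads shared by near-identical paralogs were assigned, which bears on every value of a single paralog.

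**Figure D5:**
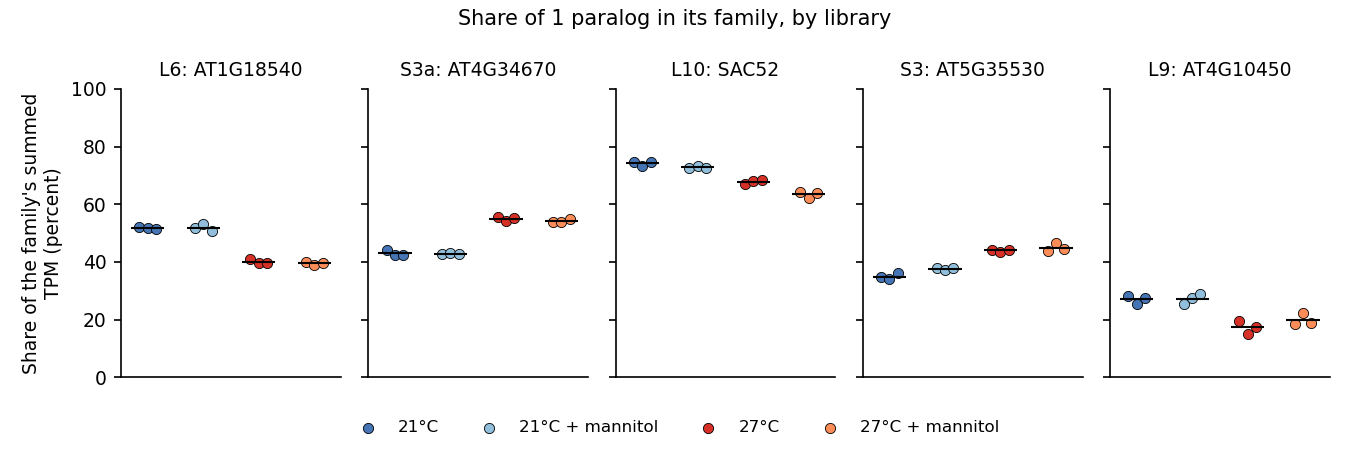
Share of a single gene in the summed TPM of its family, in percent, for 5 families and all 12 libraries, with the group mean as a line. AT1G18540, SAC52 and AT4G10450 are lower at 27°C and AT4G34670 and AT5G35530 higher, with mannitol moving the share less than temperature in each family.

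Genes with and without the promoter elements were both among those that fell. Of the 32 genes with a telo box 27 were called lower in warmth without mannitol (median -0.55), and of the 28 without it 26 (median -0.66). Of the 52 genes with site II 45 were lower (median -0.58), and all 8 of those without (median -0.63). The 60 genes lie on all 5 chromosomes, with 16, 13, 12, 8 and 11 genes on chromosomes 1 to 5. There are 3 pairs of neighbours with no protein-coding gene between them, in P2, L6 and L9, and each neighbour pair belongs to a single family.

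Other genes of the translation machinery were counted from lists. Of the other cytosolic ribosomal protein genes, 158 of 176 were tested, and at 27°C 143 were lower and 2 higher (median -0.61). The shares of all tested genes were 16.6% lower and 28.2% higher. With mannitol at both temperatures 144 were lower and 2 higher, beside 16.5% and 37.5% of all tested genes. The strongest falls without mannitol were those of AT3G56020 (-1.37 ± 0.17, adjusted p = 1.78e-05), AT3G11120 (-1.304 ± 0.15, adjusted p = 6.45e-06) and AT3G23390 (-1.09 ± 0.10, adjusted p = 1.33e-06). Mannitol left 4 higher and 0 lower at 21°C, or 2 and 1 on the rescaled values. At 27°C it left 3 higher and 7 lower, or 1 and 56 on the rescaled values. Of all tested genes, 15.4% were higher and 4.61% lower at 21°C, and 27.7% and 6.80% at 27°C, on the values as deposited. The counts at 27°C also moved with single libraries: 39 were lower without 27°C replicate 1, 3 were lower without 27°C replicate 2 or 3 or without replicate 2 or 3 with mannitol at 27°C, and 11 were higher without 27°C replicate 2. At 21°C 1 to 2 were higher without 21°C replicate 1 or 2 or without replicate 1 or 3 with mannitol.

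Ribosome biogenesis factors, which process ribosomal RNA and assemble the subunits, had 27 of 33 lower and 4 higher at 27°C (median -0.51). The shares of all tested genes were 16.6% lower and 28.2% higher. FIB2, the fibrillarin that methylates ribosomal RNA, went from 123 ± 9.48 to 49.4 ± 5.49 TPM (SD, n = 3), a log2 difference of -1.303 ± 0.08 (adjusted p = 1.84e-08). AT1G52930, of the Brix family of assembly factors, fell by 1.14. NUC-L2, a second nucleolin, went up from 1.43 ± 0.195 to 4.58 ± 1.25 TPM (1.17 ± 0.18, adjusted p = 7.95e-05). With mannitol at 27°C 21 of these factors were higher, beside 27.7% of all tested genes, and 1 was lower, beside 6.80%. On the rescaled values 0 were higher and 2 lower, so the calls depend on the scale. The median of the list was 0.22 on the values as deposited and 0.03 rescaled. Leaving out single libraries gave 13 to 20 higher, with 13 without replicate 2 or 3 with mannitol at 27°C. With mannitol in both groups 22 were lower and 4 higher in warmth, beside 16.5% and 37.5% of all tested genes. NAP57, the enzyme that makes pseudouridine in ribosomal RNA, had the list's only called interaction (0.38 ± 0.09, adjusted p = 0.0218), beside 2.43% higher of all genes. That call was lost on the rescaled values (adjusted p = 0.102). Voom on the recovered reads (adjusted p = 0.0683) and a fit without the mean-variance trend (adjusted p = 0.0731) lost it too. With adjusted p from 0.0512 to 0.0636, it was also lost without 21°C replicate 1, 27°C replicate 3, or replicate 1 or 3 with mannitol at either temperature.

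Cytosolic translation factors had 13 of 19 lower and 3 higher at 27°C (median -0.35), beside 16.6% and 28.2% of all tested genes. LSP1, a cap-binding initiation factor, fell by 0.81, whereas ELF5A-1, a form of the factor eIF5A, went up from 9.07 ± 1.24 to 23.0 ± 1.53 TPM (1.258 ± 0.11, adjusted p = 4.69e-07). With mannitol in both groups 13 were lower and 4 higher, or 14 and 2 on the rescaled values. The shares of all tested genes were 16.5% lower and 37.5% higher on the values as deposited. Mannitol alone gave 2 higher and 1 lower at 21°C, or 1 and 2 rescaled. At 27°C it gave 1 higher and 1 lower, or 0 and 6 on the rescaled values. Of all tested genes, 15.4% were higher and 4.61% lower at 21°C, and 27.7% and 6.80% at 27°C, on the values as deposited. Leaving out single libraries gave 1 to 2 higher and 0 to 1 lower at 21°C, and 1 to 4 higher, 4 without 27°C replicate 1, and 0 to 1 lower at 27°C.

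The TOR kinase pathway, which promotes ribosome production when nutrients and light allow growth, and regulators of ribosomal protein genes had 2 of 12 higher and 0 lower at 27°C, beside 28.2% higher among all tested genes, or 2 and 1 on the rescaled values. The 2 called higher on the values as deposited were PK1 and TCP20. The kinase gene PK1 (AT3G08730), which acts on the ribosomal protein S6, was at 0.36 ± 0.07 (adjusted p = 0.000451). TCP20, which binds site II elements, was at 0.41 ± 0.11 (adjusted p = 0.00852). Without 27°C replicate 2, 5 were higher. With mannitol in both groups 6 were higher and 0 lower, beside 37.5% higher among all tested genes, against 2 and 1 on the rescaled values. Mannitol at 27°C gave 5 higher and 0 lower, among them S6K2 (0.54 ± 0.10, adjusted p = 0.000989), beside 27.7% higher among all tested genes, and 1 higher on the rescaled values. That count was 8 without 27°C replicate 1, 3 without 27°C replicate 2 or 3 or replicate 2 with mannitol at 27°C, and 2 without replicate 3 of the latter group. TCP20 alone was called with mannitol at 21°C (0.48 ± 0.11, adjusted p = 0.00693).

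Plastid ribosomal protein genes, which serve translation in the chloroplast, were lower with mannitol as well as in warmth. At 27°C 25 of 38 were lower and 3 higher (median -0.26), beside 16.6% and 28.2% of all tested genes. With mannitol in both groups 31 were lower and 0 higher, beside 16.5% and 37.5%. Mannitol lowered 33 of 38 at 21°C (median -0.30) and 38 of 38 at 27°C (median -0.45), where of the 60 cytosolic genes 0 and 1 were lower. Among all tested genes 4.61% and 6.80% were lower. The contrast was smaller on the rescaled values, with 37 and 38 plastid genes lower and 4 and 13 of the 60. PSRP3/1 stood at 673 ± 19.5 TPM at 21°C, 623 ± 21.1 with mannitol, 422 ± 39.9 at 27°C and 299 ± 2.63 with both (SD, n = 3). The interaction was called for 5 of the 38, all lower, beside 2.69% lower of all tested genes. This count was 11 without 27°C replicate 1 and 1 to 3 without 21°C replicate 2 or 3, 27°C replicate 2 or 3, any library with mannitol at 21°C, or replicate 2 or 3 with mannitol at 27°C. Telo boxes and site II elements were in 13.2% and 47.4% of the plastid set, against 53.3% and 86.7% of the 60 genes. No test of the difference between the sets was made.

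Outside the ribosomal protein lists, the genes whose log2(TPM + 1) followed the log2 sum of the 60 genes most closely over the 12 libraries were AT2G43110, PHB3 and FBR12. AT2G43110, annotated as a part of a preribosomal complex, had r = 0.992, and it read 19.9, 22.5 and 22.0 TPM at 21°C and 10.01, 14.2 and 12.7 TPM at 27°C. PHB3 (AT5G40770), a mitochondrial prohibitin, had r = 0.992, with 92.0, 98.0 and 97.2 TPM against 59.3, 72.5 and 65.5 TPM. FBR12 (AT1G26630), another gene for eIF5A, had r = 0.989, with 899, 948 and 981 TPM against 699, 829 and 752 TPM. In each of them replicate 1 was the lowest and replicate 2 the highest at 27°C, as in the sum of the 60 genes. Choosing genes by their correlation with that sum favours this shared order. These likenesses describe 12 libraries that fall mainly into 2 temperatures, and they carry no test.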

How the data were processed

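Per the submitters' processing notes, the tools were fastp 0.20.1, HISAT2 and DESeq2 1.26.0, with the TAIR10 genome; the sources used here give neither their roles nor the counting tool or gene lengths. The authors deposited TPM values, which sum to 1000000 in each library, for 27655 genes under Araport-style locus identifiers. Of these, 27445 matched the TAIR10.1 RefSeq annotation, which gave symbols, products and promoters, read at the gene starts of that annotation.

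TPM was transformed to log2(TPM + 1), and 20005 genes with at least 1 TPM in at least 3 libraries were tested. limma 3.58.1 in R 4.3.3 fitted 4 group means with a mean-variance trend, with two-sided p-values adjusted by Benjamini-Hochberg over all tested genes of a contrast. The fit was tested on simulated data. A log2 difference carries the SE of the fit and understates the change of low genes. Whole reads were recovered from the TPM steps (21760 of 21760 genes tried, tolerance 0.01) and served for depth and a voom alternative only. Alternatives changed the pseudocount, filter, scaling, trend, libraries in the fit, replicate block and input, and left out each library.

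The 60 genes and the gene lists were chosen with earlier results of these data known. Named genes are the 3 highest and 3 lowest by mean TPM, up to 4 called per direction and contrast, 5 paralogs by the move of their share, up to 3 called per contrast of a list, and 3 genes by likeness; members shown beside them, such as paralogs and those not called, were added after their values were seen.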

Additional observations from a re-analysis of the deposited data

How the results depend on the processing

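The fall of the 60 genes in warmth kept its direction under every alternative tried: the median log2 difference ran from -0.51 (without 27°C replicate 1) to -0.68 (rescaled) without mannitol and from -0.58 to -0.77 (rescaled) with it, and 52 to 56 genes were called lower without mannitol and 50 to 58 with it. Leaving out single libraries gave 0 to 2 called higher and 52 to 56 lower in warmth, and 1 higher and 50 to 57 lower in warmth with mannitol. With mannitol at 21°C it gave 0 to 2 higher and 0 to 2 lower, with it at 27°C 1 to 5 higher and 0 to 8 lower, and for the interaction 0 to 1 in each direction. Median-of-ratios rescaling gave 4 lower for mannitol at 21°C, and 0 higher and 13 lower at 27°C. Fitting only the groups of a contrast gave 3 higher and 1 lower at 21°C and 0 lower at 27°C. For the latter comparison the lower count was 0 without the mean-variance trend and 2 with voom on recovered reads. The sums relative to 21°C were 94.8% (mannitol) and 55.9% (27°C with mannitol) on the rescaled values. Leaving out single libraries gave 100.2% to 103.5%, 64.6% to 71.9% at 27°C and 67.1% to 69.4% for 27°C with mannitol. A telo box was in 21.7% of the 250-base windows. The sign of AT5G23900 in warmth turned to -0.016 with rescaling and to -0.025 without 27°C replicate 2, and it was 0.17 without 27°C replicate 1. The cause of these changes was not tested. Of 1256 values for 63 named gene and contrast pairs under alternatives, 1183 kept sign and side of the threshold, 41 lost a call, 30 gained a call and 2 reversed.

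Same-numbered libraries of different groups had residual correlations from -0.076 to 0.128. Differently numbered libraries were not set beside them, so these values cannot settle whether replicate numbers pair the libraries. With the replicate number as a block 53 of the 60 genes were lower in warmth without mannitol, 52 lower and 1 higher in warmth with mannitol, none with mannitol at 21°C, 1 higher and 1 lower with it at 27°C, and 0 for the interaction.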
